A study of Mus musculus with 12 samples.

Results

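H3K4me3 regions that were called at every stage but covered less sequence in adult than in embryonic intestinal epithelium make up the set described here. Peaks of the 8 lists were merged wherever they overlapped or touched, which gave 24352 regions. Of these, 8903 had a peak in all 8 libraries, and the 8651 on autosomes are called constant regions here. The bp under a library's peaks in a region is its covered length. Divided by that library's median over the constant regions, it is the relative length, so 1 stands for a region of median length in that library. A member is a constant region whose highest adult relative length lay below its lowest embryonic one, with a mean embryonic relative length at least 33% above the mean adult one. The groups did not overlap in 656 constant regions, 7.58%, and 393 of these also had the ratio and are the members, 4.54% of the constant regions. The members were thus chosen by their adult and embryonic lengths, which are given as a description with no test.

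The study profiled H3K4me3 by chromatin immunoprecipitation and sequencing in sorted mouse small-intestinal epithelium, to follow chromatin while adult stem cells arise and differentiate. The adult groups were enterocytes (AE) and Lgr5-EGFPhigh stem cells (ISC), both from Lgr5EGFP-Cre-ERT males at P60. The embryonic groups were EpCAM+ epithelium at E14.5 and at E12.5, for which no genotype beyond the strain and no sex is given in the labels. All mice were of the mixed C57BL/6 CD1 strain, and the gate for enterocytes and embryonic cells was EpCAM+CD31-CD45-DAPI-. Each group had 2 libraries, called biological duplicates in the design text, and both shared 1 input control. Sequence length under peaks says nothing of how many cells carry the mark: less mark per cell and fewer marked cells cannot be told apart. The labelled cell types were not checked against marker genes, since no gene annotation of the files' build, mm9, was used here. Regions are therefore given by mm9 position, and only the Shh region carries a gene name, placed there from general knowledge of the mouse genome.

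H3K4me3 is laid down around the start sites of active and poised genes, where it usually forms a peak of limited width. Some genes carry it over a much wider stretch, and wide domains are known to mark genes that define a cell's identity. Shh, Sonic hedgehog, is a secreted ligand that the embryonic gut epithelium makes and that signals to the mesenchyme beneath it, which carries the receptors and the transcription factors of the pathway.

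The libraries differed in depth and in the number and width of their peaks, in a way that touches every length below. Depth lay between 12821255 and 25547814 tags in the adult libraries and between 15053166 and 43259380 tags in the embryonic ones. The median covered length over constant regions was 1273 and 1469 bp in AE, 1294 and 1526 bp in ISC, 1714 and 1750 bp in E14.5, and 988 and 1152 bp in E12.5. E14.5 lists thus held the widest peaks and E12.5 lists the narrowest, with the adult lists between them. Division by these medians removes that difference, and it decides the membership of most regions.

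In covered bp without that division, the members had a median of 829 and 1115 bp in AE, 1126 and 1317 bp in ISC, 1949 and 2013 bp in E14.5, and 1300 and 1448 bp in E12.5. Both E14.5 libraries lay above all 4 adult libraries in bp in each of the 393 members, which the rule fixes, since the E14.5 medians exceed all adult medians; over all constant regions this held in 55.4%. Both E12.5 libraries did so in 87 members, 22.1% of the set, against 1.62% of the constant regions. Both lay below all 4 adult libraries in 0 members, against 42.4% of the constant regions. The rule bears on these counts too, so nothing is read from them beyond how far membership rests on the scaling. In the other 306 members at least 1 E12.5 library overlapped the adult lengths before scaling. The 87 regions that separate in bp as well had a median unscaled ratio of 1.69, embryonic over adult, and the lowest of them had 1.30.

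**Figure D1:**
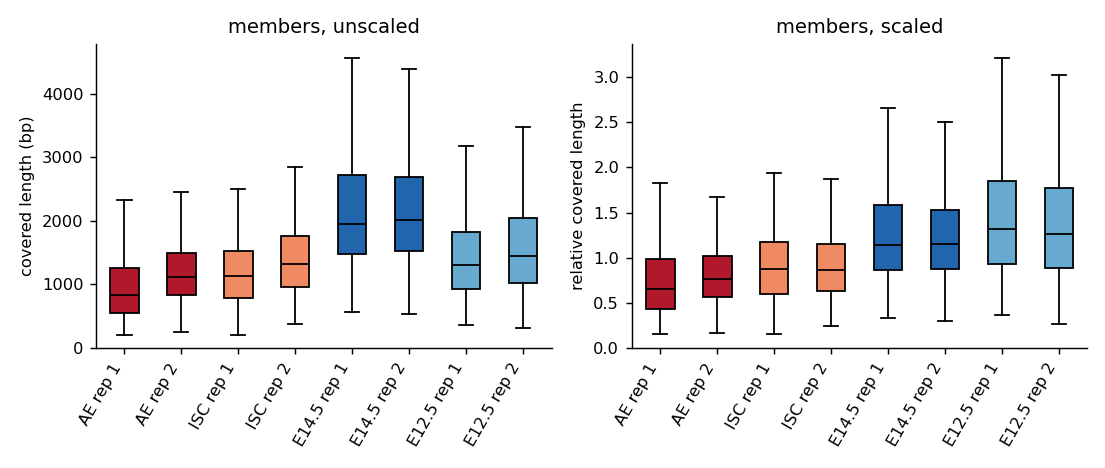
Covered length (bp, left) and relative length (right, 1 is the library's median over constant regions) of the 393 members in each library. Boxes span the quartiles with the median as a line, whiskers reach the farthest value within 1.5 box heights, and points beyond are not drawn; the ISC medians of 1126 and 1317 bp stand close to the E12.5 medians of 1300 and 1448 bp on the left, and all embryonic medians stand above all adult ones on the right.

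On the relative scale the members' median was 0.65 and 0.76 in AE, 0.87 and 0.86 in ISC, 1.14 and 1.15 at E14.5, and 1.32 and 1.26 at E12.5. The median member was thus shorter than the median constant region in all 4 adult libraries and longer than it in all 4 embryonic ones. Single members could lie on either side of it. Ranked by length among the constant regions of its own library, the median member stood at the 22.2 and 27.3 percentile in AE and the 38.3 and 36.5 percentile in ISC, against 62.9 and 63.5 at E14.5 and 68.1 in both E12.5 libraries. The ratio of mean embryonic to mean adult relative length had a median of 1.48 over the members, with quartiles of 1.39 and 1.65. It reached at least 1.5 in 181 members, at least 2 in 37 and at least 3 in 6. The median over all constant regions was 1.02.

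**Figure D2:**
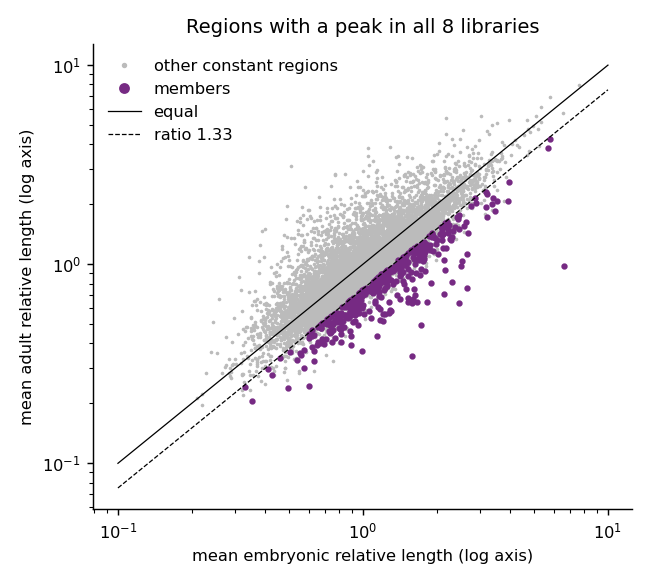
Mean adult against mean embryonic relative length of the constant regions, on log axes. Members (purple) lie below the dashed line of the minimum ratio, with a median ratio of 1.48; the isolated point at the right is the Shh region, with a ratio of 6.77.

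Just inside the threshold were the regions on chromosome 6 from 128748055 to 128750276, with a ratio of 1.331, and on chromosome 17 from 34986477 to 34988902 and chromosome 4 from 133306313 to 133310966, both with 1.3325. Just outside it were those on chromosome 9 from 120479716 to 120482614 with 1.3289, chromosome 11 from 50640545 to 50641583 with 1.3275, and chromosome 12 from 112078501 to 112079532 with 1.3274. The gap between the groups was very small in some members. On chromosome 11 from 115999142 to 116000226 the highest adult and the lowest embryonic relative length were both 0.547, and on chromosome 5 from 123793488 to 123796826 both were 1.823. In the region on chromosome 8 from 82234395 to 82236870 they were 1.155 and 1.156.

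The Shh region, on chromosome 5 from 28784448 to 28795085, had the highest ratio of the set. Peaks there covered 934 and 1404 bp in AE, 1160 and 2019 bp in ISC, 10204 and 10078 bp in E14.5, and 7040 and 8783 bp in E12.5. The longest adult coverage was 2019 bp and the shortest embryonic one 7040 bp, so the groups were far apart on either scale. Relative lengths were 0.73 and 0.96 in AE, 0.90 and 1.32 in ISC, 5.95 and 5.76 at E14.5, and 7.13 and 7.62 at E12.5, a ratio of 6.77. In adults the region was thus of about median length for its library, and in embryos it was among the longest constant regions.

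The adult peaks lay inside the embryonic domain. In AE a single peak ran from 28790483 to 28791416 in replicate 1 and from 28790256 to 28791659 in replicate 2. In ISC replicate 1 it ran from 28790746 to 28791905, and in ISC replicate 2 from 28790532 to 28792037. All 4 adult libraries therefore shared a short segment that every embryonic library also covered. ISC replicate 2 had a pair of further short peaks, from 28785461 to 28785777 and from 28793254 to 28793449, near the edges of the embryonic domain. At E14.5 a single peak ran from 28784882 to 28795085 in replicate 1 and from 28784448 to 28794525 in replicate 2. At E12.5 replicate 2 had a single peak from 28784895 to 28793677, while replicate 1 had one from 28785922 to 28786707 and another from 28787523 to 28793776. The stretch covered in all 4 embryonic libraries measured 6941 bp, and 4963 bp of it had no peak in any adult library. This total, made up of several pieces between and beside the adult peaks, was the largest among the members.

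**Figure D3:**
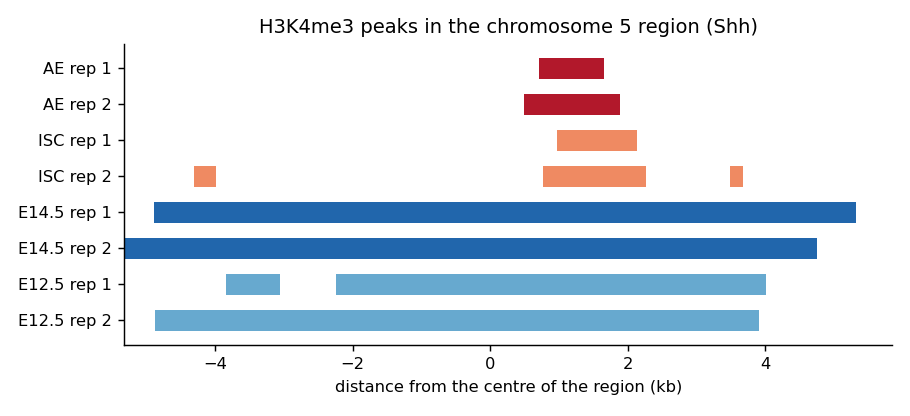
H3K4me3 peaks of the 8 libraries in the Shh region on chromosome 5, as distance from the region's centre in kb, 1 bar per peak. The central adult peak lies right of the centre in all 4 adult libraries, ISC replicate 2 has 2 further short peaks, and the embryonic peaks span nearly the whole region.

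Peak height in the Shh region was also ranked. The pileup, the authors' coverage by fragments within a peak, was weighted by peak length and ranked among the constant regions of the same library. The Shh region stood at the 18.8 and 31.9 percentile in AE and the 15.3 and 1.93 percentile in ISC, against 39.6 and 41.2 at E14.5 and 68.2 and 65.7 at E12.5. All 4 adult ranks lay below all 4 embryonic ranks. Within 200 kb, between midpoints, the 8 lists held a pair of other regions and no more. The one on chromosome 5 from 28642834 to 28644920 was called in all 8 libraries with a ratio of 1.15 and is no member. The other, from 28828090 to 28828222, was called in E14.5 replicate 2 alone, with 133 bp.

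Length in the Shh region did not pass the test within adults or within embryos. On log2(scaled covered bp + 200), the scale of all log2 changes below, AE minus ISC was -0.33 ± 0.19 (SE) with a limma adjusted p of 0.467. The log2 change for E14.5 minus E12.5 was also -0.33 ± 0.19, with a limma adjusted p of 0.316. That sign rests on the scaling: without it the log2 change was 0.36.

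The region ranked next lay on chromosome 13 from 22009003 to 22011781. It had 333 and 250 bp in AE, 197 and 1215 bp in ISC, 2692 and 2522 bp in E14.5, and 1571 and 2012 bp in E12.5, a ratio of 4.60. ISC replicate 2 stood well above the other 3 adult libraries here, yet below all embryonic ones. Its pileup rank was low throughout, at most the 3.27 percentile in adults and at most 2.86 in embryos, so the embryonic domain was long and shallow.

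A region on chromosome 8 from 35038226 to 35042275 showed both a shorter and a lower mark in adults. Peaks covered 520 and 605 bp in AE, 1197 and 1249 bp in ISC, 4013 and 4001 bp in E14.5, and 2957 and 2597 bp in E12.5, a ratio of 3.85. Pileup ranks ran from 0.717 to 9.89 in the adult libraries and from 42.7 to 71.4 in the embryonic ones. The groups did not overlap in either measure, and 1365 bp at its low-coordinate side were covered in every embryonic and in no adult library.

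Chromosome 10 held a pair of the leading regions. From 44245998 to 44250009 peaks covered 700 and 1691 bp in AE, 1079 and 790 bp in ISC, 3748 and 4012 bp in E14.5, and 3143 and 3481 bp in E12.5, a ratio of 3.50. The replicates of AE differed more here than AE and ISC did. From 117065791 to 117069322 the covered lengths were 578 and 1062 bp in AE, 1143 and 1166 bp in ISC, 3516 and 2595 bp in E14.5, and 2330 and 3038 bp in E12.5, a ratio of 3.02. In the first of these, 1517 bp on the low-coordinate side were embryonic only, and in the second 862 bp on the high-coordinate side.

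On chromosome 11 from 68504565 to 68507337, AE had 570 and 1055 bp and ISC 306 and 876 bp, against 2336 and 2397 bp in E14.5 and 2262 and 2162 bp in E12.5, a ratio of 3.49. The 4 embryonic lengths lay between 2162 and 2397 bp, while the adult replicates of each group differed widely. On chromosome 3 from 80840040 to 80843347, AE had 1211 and 1482 bp and ISC 736 and 1085 bp, against 2759 and 3211 bp in E14.5 and 2962 and 3181 bp in E12.5, a ratio of 2.84. This was one of 7 members in which the adult peaks of every library lay wholly inside the stretch covered in all embryonic libraries.

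The region on chromosome 18 from 33621674 to 33624408 was short in AE above all. It had 312 and 530 bp in AE, 1356 and 1427 bp in ISC, 2265 and 2353 bp in E14.5, and 2458 and 2441 bp in E12.5, a ratio of 2.81. Both ISC libraries stood between AE and the embryonic stages. On chromosome 1 from 69730812 to 69734930 the lengths were 807 and 991 bp in AE, 2343 and 1223 bp in ISC, 3670 and 4119 bp in E14.5, and 3223 and 2646 bp in E12.5, a ratio of 2.56. Its ISC replicate 1 came close to the shortest embryonic library, and lay below it on either scale.

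The remaining 3 of the 12 members with the highest ratios did not separate in unscaled bp. On chromosome 13 from 30227914 to 30230334, AE had 203 and 494 bp and ISC 647 and 713 bp, against 2419 and 2398 bp in E14.5 and 625 and 644 bp in E12.5. Both E12.5 libraries lay below both ISC libraries and above both AE libraries in bp there. The ratio of 2.72 comes from E14.5 and from the scaling of the E12.5 libraries. On chromosome 14 from 25309852 to 25313792, AE had 651 and 832 bp and ISC 979 and 1130 bp, against 3516 and 3867 bp in E14.5 and 1120 and 1470 bp in E12.5, a ratio of 2.59. Here the pileup ranks did not follow the lengths: they were 73.9 to 92.0 in the adult libraries, 38.5 and 35.8 at E14.5, and 91.6 and 95.4 at E12.5. On chromosome 14 from 31943671 to 31945972, AE had 337 and 820 bp and ISC 252 and 1102 bp, against 1891 and 2234 bp in E14.5 and 936 and 1434 bp in E12.5, a ratio of 2.63. Only 16.6% of the adult covered length of that region lay in the stretch shared by the embryonic libraries, so there the adult peaks were displaced as well as shorter.

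**Figure D4:**
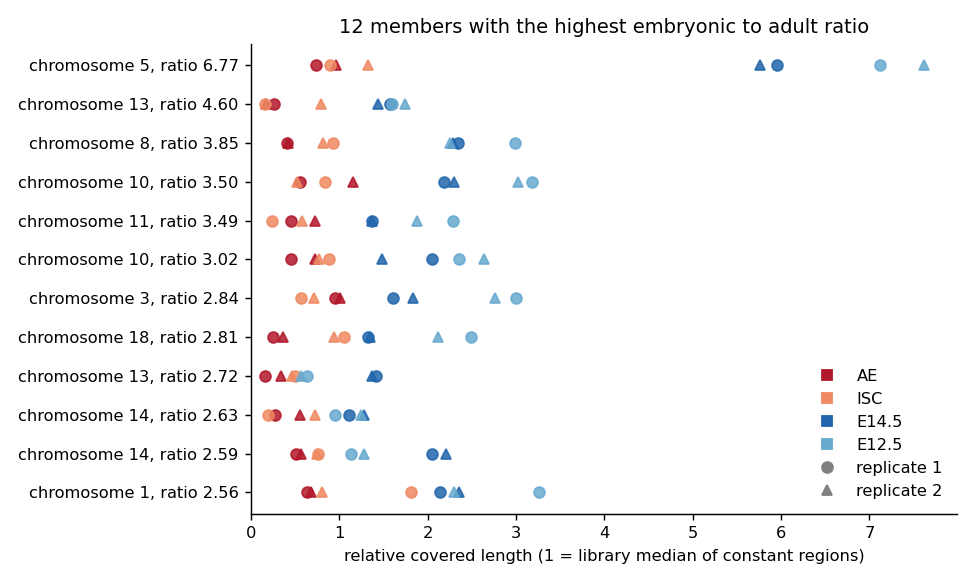
Relative length in each library of the 12 members with the highest ratio of mean embryonic to mean adult relative length, from the Shh region at the top (ratio 6.77) to chromosome 1 at the bottom (2.56). Red and orange points are AE and ISC, dark and light blue points E14.5 and E12.5; a gap separates adult from embryonic points in each row, as the rule requires, and it is widest for Shh.

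The widest embryonic domains of the set were less reduced in adults than the Shh region. On chromosome 14 from 63858108 to 63868800 peaks covered 5319 and 7215 bp in AE, 3866 and 7424 bp in ISC, 10693 and 9958 bp in E14.5, and 6168 and 5701 bp in E12.5. AE, ISC and E12.5 overlap in bp there, and the ratio was 1.36. On chromosome 12 from 58639187 to 58649143 the lengths were 4029 and 4629 bp in AE, 5717 and 6918 bp in ISC, 9174 and 9395 bp in E14.5, and 6632 and 6029 bp in E12.5, a ratio of 1.49. On chromosome 2 from 29916772 to 29924153 they were 3183 and 3396 bp in AE, 3645 and 4243 bp in ISC, 7068 and 7265 bp in E14.5, and 3479 and 4582 bp in E12.5, a ratio of 1.51. In these 3 domains the E14.5 libraries stood apart from all others in bp, and E12.5 stood apart from the adults only after scaling.

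The other wide domain, on chromosome 12 from 12943687 to 12949734, had the largest gap in peak height of the set. Peaks covered 1388 and 3130 bp in AE, 3025 and 4151 bp in ISC, 5945 and 6048 bp in E14.5, and 4354 and 5023 bp in E12.5, a ratio of 1.90 with no overlap in bp. Its pileup stood at the 9.23 and 4.57 percentile in AE and the 6.99 and 8.54 percentile in ISC, against 96.1 and 96.7 at E14.5 and 93.7 and 83.4 at E12.5. The region was thus among the lowest constant regions in every adult library and among the higher ones in every embryonic library.

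Peak height over the whole set differed less than length. The median pileup percentile of the members was 35.9 and 42.2 in AE, 46.3 and 47.0 in ISC, 51.5 and 50.0 at E14.5, and 52.4 and 53.7 at E12.5. All 4 adult ranks lay below all 4 embryonic ranks in 69 members, 17.6%, against 619 constant regions, 7.16%. They lay above them in 15 members, 3.82%, against 7.34% of the constant regions. The median rank of the fold enrichment over input, the authors' value for each peak, was 30.3 and 31.7 in AE, 45.3 and 46.5 in ISC, 58.6 and 53.5 at E14.5, and 60.1 and 56.7 at E12.5. Peak length and height come from the same reads, so these ranks are a description of the members and not separate evidence. A median pileup rank near 50 in the embryonic libraries says that members were of ordinary height there.

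Adult peaks overlapped the embryonic domain for most of their length and seldom lay wholly inside it. The median share of adult covered length inside the stretch covered by all 4 embryonic libraries was 91.0%, with a lower quartile of 84.5%, and it was 100% in 7 members, 1.78%. Over all constant regions the median was 68.4% and the lower quartile 51.6%, and the share was 100% in 8 regions, 0.0925%. A longer embryonic stretch holds more of a shorter adult peak by construction. The coverage profile along that stretch was compared between members and all constant regions. With the stretch divided into 20 bins, in the bin next to the middle AE replicate 1 had a peak in 81.4% of the members and ISC replicate 2 in 97.5%. At the low-coordinate end, AE covered 36.6% and 56.0% of the members and ISC 55.0% and 75.8%. At the high-coordinate end, AE covered 31.8% and 54.2% and ISC 52.9% and 76.1%. The ends were missing about equally often, most often in AE replicate 1 and least often in ISC replicate 2, with AE replicate 2 and ISC replicate 1 close together. The profile over all constant regions that have such a stretch tapered at both ends too, at a higher level. There AE covered 77.0% and 87.4% at the low-coordinate end and 77.1% and 87.6% at the high-coordinate end, and ISC 86.5% and 95.9% at both.

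Stretches covered in every embryonic and in no adult library were present in 195 of the 393 members, with a median of 89 bp. Among all 8651 constant regions 561 had such a stretch, with a median of 55 bp. The rule chose regions shorter in adults and so favours such stretches, and these values are a description only. It lay on 1 outer side only in 181 of the 195 members, 92.8%, and in 96.4% of those constant regions. The larger part was at lower coordinates in 95 members and at higher coordinates in 93, against 277 and 272 of those constant regions. In 8 of the 195 members, 4.1%, part or all of it lay between adult peaks, as in the Shh region. Among those constant regions this held in 13, 2.32%. More than 1 peak in a library was found in 0.254% to 2.04% of the members, near the 0.682% to 1.72% of all constant regions.

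The members' region lengths ran from 622 to 10693 bp with a median of 2126 bp, and the median over all constant regions was 2004 bp. They were spread over all autosomes. The share of constant regions that were members was lowest on chromosome 19, with 5 of 306 or 1.63%, and highest on chromosome 18, with 16 of 241 or 6.64%, and chromosome 10, with 29 of 438 or 6.62%. Another member lay within 50000 bp of 24 members, 6.11%, against 4.85% of the constant regions. A region called in all 4 embryonic and in no adult library lay that near to 8 members, 2.04%, against 1.55% of the constant regions. One called in all 4 adult and in no embryonic library lay that near to 6 members, 1.53%, against 1.66%. The members thus had neighbours of either kind about as often as constant regions in general.

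Whether the members also differed between the adult cell types was tested with limma on all 17679 regions called in at least 2 libraries. The 8 lengths tested had also entered the rule, which ordered adults against embryos but not AE against ISC. A low value in 1 adult group, or a high one in 1 embryonic stage, raises its ratio and so favours membership. The balance of shorter and longer calls among members and the order of their libraries are therefore a description and not separate evidence. This holds here and in the embryonic contrast. In AE minus ISC, 16 members were called shorter in AE at an adjusted p of 0.05, which is 4.07% of the set, and 1 was called longer, 0.254%. At an unadjusted p under 0.05 limma gave 72 shorter and 5 longer, together 77 of the 393 members. In both directions together that held for 1512 of the 8651 constant regions and 3264 of the 17679 regions tested. Over all constant regions 1.6% were called shorter and 2.82% longer, and over all regions tested 3.17% and 4.35%. Among constant regions longer calls thus outnumbered shorter ones, and among members shorter calls outnumbered longer ones. The median log2 change of the members was -0.19 and that of all constant regions 0.001. Both AE libraries were shorter in relative length than both ISC libraries in 199 members, 50.6%, against 24.0% of the constant regions, and longer in 24 members, 6.11%, against 25.2%. AE replicate 1, the shallowest library with 12821255 tags, held the lowest adult value in 218 members, 55.5%, against 25.3% of the constant regions, and the part of depth in this was not tested. The count of 16 was sensitive to single libraries: it became 5 and 66 with AE replicate 1 or 2 left out, 5 and 9 with ISC replicate 1 or 2 left out, and 4 with either E14.5 library left out.

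The region on chromosome 5 from 77378682 to 77381970 had 774 and 1123 bp in AE and 2373 and 2486 bp in ISC, beside 3254 and 3284 bp in E14.5 and 2414 and 2918 bp in E12.5. ISC reached the length of the shorter E12.5 library there, and AE did not come near it. The log2 change for AE minus ISC was -1.18 ± 0.11 (SE), with a limma adjusted p of 0.0031 that stayed under 0.05 with any 1 library left out. The chromosome 18 region starting at 33621674, described above, was the other named call that held without each library, with a log2 change of -1.35 ± 0.15 and a limma adjusted p of 0.00598. On chromosome 5 from 136559404 to 136561520, AE had 378 and 491 bp and ISC 968 and 1428 bp, beside 1687 and 2117 bp in E14.5 and 1003 and 1183 bp in E12.5. Its log2 change was -1.09 ± 0.15 with a limma adjusted p of 0.0112, and 0.0669 without AE replicate 1. On chromosome 1 from 55140386 to 55147824, AE had 1898 and 1895 bp and ISC 3654 and 4114 bp, beside 6157 and 7439 bp in E14.5 and 3274 and 3345 bp in E12.5. Its log2 change was -0.92 ± 0.13 with a limma adjusted p of 0.0117, which became 0.0537 with AE replicate 1 left out, 0.0572 with ISC replicate 1 left out and 0.0507 with ISC replicate 2 left out.

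The chromosome 8 region starting at 35038226 had a log2 change of -0.87 ± 0.14 for AE minus ISC and a limma adjusted p of 0.0206. That call was lost in 6 of the 8 fits without 1 library, with limma adjusted p up to 0.115 without AE replicate 1. The 1 member called longer in AE lies on chromosome 11 from 98219208 to 98220926. It had 1125 and 1136 bp in AE and 635 and 826 bp in ISC, beside 1527 and 1716 bp in E14.5 and 980 and 1183 bp in E12.5. Its log2 change was 0.56 ± 0.11 with a limma adjusted p of 0.0361, and this call was lost in 7 of the 8 fits without 1 library, with limma adjusted p up to 0.128 without ISC replicate 1. None of these 6 calls held when only peaks whose −log10 q reached 10 were used.

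Within embryos the scaling decided the direction. In E14.5 minus E12.5, 18 members were called shorter at E14.5, 4.58% of the set, and 6 longer, 1.53%. Over all constant regions 3.46% were called shorter and 3.77% longer, and over all regions tested 1.86% and 15.2%. The members' median log2 change was -0.14 and that of all constant regions -0.02. Without scaling limma called 136 members longer at E14.5 and 0 shorter, also 0 at an unadjusted p under 0.05. The same count over all constant regions is not given here. Their median covered length was 1714 and 1750 bp at E14.5 against 988 and 1152 bp at E12.5. The 136 are therefore not read as particular to the members. Leaving out E14.5 replicate 1 or 2 gave 0 limma calls in both directions, with 7 or 11 members longer and 23 or 25 shorter at an unadjusted p under 0.05. In addition, the shorter calls numbered 32 without AE replicate 1, 34 without AE replicate 2, 9 without ISC replicate 1 and 32 without E12.5 replicate 2. The 4 members called in both contrasts included the chromosome 18 region starting at 33621674, and 356 members were called in neither. These counts were not made over the constant regions. In both directions together, AE minus ISC called 17 of the 393 members and 382 of the 8651 constant regions. E14.5 minus E12.5 called 24 members and 625 constant regions. Members were thus not called more often than constant regions in general.

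The 5 named members called longer at E14.5 had an E12.5 coverage close to the adult one in bp. On chromosome 7 from 146097920 to 146102052, AE had 815 and 1021 bp and ISC 789 and 930 bp, while E14.5 had 3987 and 3618 bp and E12.5 1066 and 1030 bp. Both E12.5 libraries lay just above the adult ones and both E14.5 libraries far above all others. The log2 change was 1.05 ± 0.11 with a limma adjusted p of 0.00196. A second region on chromosome 7, from 125254749 to 125260384, had 1255 and 1409 bp in AE and 1591 and 1599 bp in ISC, beside 4350 and 5486 bp in E14.5 and 1583 and 1467 bp in E12.5. Here E12.5 and adult lengths overlapped in bp, and the log2 change was 0.91 ± 0.15 with a limma adjusted p of 0.012. On chromosome 13 from 101554172 to 101556601, AE had 633 and 871 bp and ISC 968 and 1111 bp, beside 2430 and 2259 bp in E14.5 and 953 and 929 bp in E12.5. Its log2 change was 0.54 ± 0.12 with a limma adjusted p of 0.0381. The regions starting at 30227914 on chromosome 13 and at 25309852 on chromosome 14, described above, had log2 changes of 1.05 ± 0.23 and 0.75 ± 0.09 with limma adjusted p of 0.0352 and 0.00343. For these 5 regions the log2 change stayed positive under every setting tried, and each call was lost without either E14.5 library. Both chromosome 13 calls were also lost without some other libraries and in further settings. With quantile normalization their limma adjusted p was 0.0699 (30227914) and 0.0923 (101554172), and with regions called in all 8 libraries 0.0511 and 0.0988. With only peaks whose −log10 q reached 10, limma adjusted p was 0.101 for the region at 146097920 on chromosome 7.

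The calls of the 5 named members called shorter at E14.5 rest on the scaling. On chromosome 4 from 108250373 to 108253188, AE had 1293 and 1539 bp and ISC 1610 and 1921 bp, beside 2369 and 2281 bp in E14.5 and 2041 and 2646 bp in E12.5. The log2 change was -0.65 ± 0.08 with a limma adjusted p of 0.00281, although the bp of the stages overlap. On chromosome 18 from 34910024 to 34912075, AE had 765 and 1141 bp and ISC 1260 and 1519 bp, beside 1747 and 1783 bp in E14.5 and 1535 and 1850 bp in E12.5, and the log2 change was -0.57 ± 0.11 with a limma adjusted p of 0.024. On chromosome 14 from 64224633 to 64226643, AE had 1123 and 1480 bp and ISC 1309 and 1470 bp, beside 1875 and 1935 bp in E14.5 and 1803 and 1741 bp in E12.5. The log2 change was -0.54 ± 0.11 with a limma adjusted p of 0.0263, while in bp both E14.5 libraries were the longer ones. The chromosome 3 region starting at 80840040 and the chromosome 18 region starting at 33621674 had log2 changes of -0.70 ± 0.12 and -0.73 ± 0.15, with limma adjusted p of 0.0126 and 0.0284. In the chromosome 18 region starting at 33621674 both E14.5 libraries were the shorter ones in bp too, with 2265 and 2353 bp in E14.5 against 2458 and 2441 bp in E12.5. None of these 5 calls held without scaling or without either E14.5 library.

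**Figure D5:**
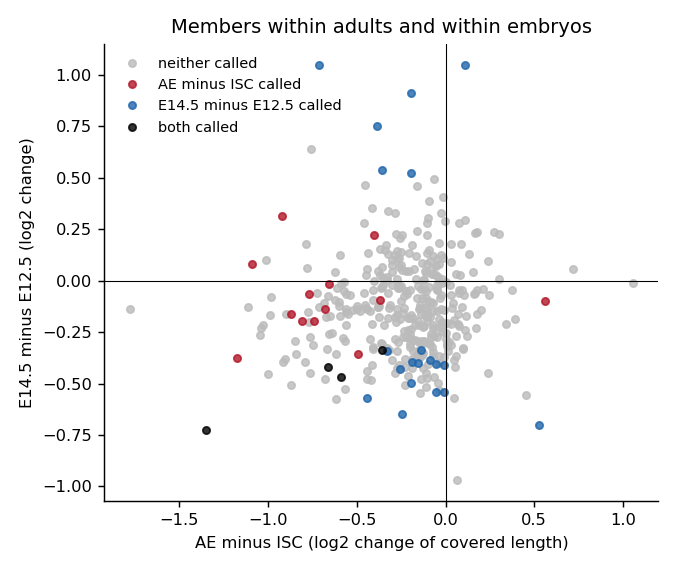
Log2 change of covered length in AE minus ISC (x axis) and in E14.5 minus E12.5 (y axis) for the 393 members, on the scaled lengths with 200 bp added. Coloured points passed the limma test at an adjusted p of 0.05 in 1 contrast and black points in both. Most points lie left of 0, with a median of -0.19, and below 0, with a median of -0.14. The direction on the y axis turns without scaling. There 136 members were called longer at E14.5 and 0 shorter, with no count over all constant regions beside it.

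Ordering the groups by their means gave a like picture. These orders come from the same lengths that entered the rule, so they too are a description and not separate evidence. Mean relative length was lower in AE than in ISC in 325 members, 82.7%, against 50.2% of the constant regions, and lower at E14.5 than at E12.5 in 289, 73.5%, against 53.6%. The mean embryonic relative length was at the median 1.62 times the AE mean and 1.37 times the ISC mean. The lowest adult value was in either AE library in 326 members, 83%, against 51.3% of the constant regions, and the highest in either ISC library in 298, 75.8%, against 47.3%. The highest embryonic value was in either E12.5 library in 306 members, 77.9%, against 62.0%. On the relative scale the members' median thus rose from AE over ISC and E14.5 to E12.5, and in bp from AE over ISC and E12.5 to E14.5.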

How the data were processed

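H3K4me3 peak lists of 8 libraries were used, 2 each for AE, ISC, E14.5 and E12.5, grouped by sample titles. Per the file headers, peaks were called per library with MACS 2.0.10.20130712 in broad mode against an input, with a q-value cutoff of 0.01 and a genome size of 1870000000. The lowest −log10 q listed for a peak was 1.005 to 1.093 across the 8 lists. Not every listed peak thus has a q-value under 0.01, and covered lengths include such weaker peaks. Alignment tools and build, per the submitters' processing notes, were Bowtie 1.1.2, SAMtools 1.2 and mm9. Per the file headers, the authors' values for each peak are its position, a fold enrichment over input as a ratio, a pileup signal (fragment coverage), and p-value and q-value as −log10. The deposited lists hold no read counts per region, so no counting interval can be given, and part of a region without a peak is not shown to lack the mark.

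Merging, the rule and all ranks were computed with Python 3.11.15, pandas 2.3.3 and numpy 2.4.6. Covered bp, divided by a factor per library from the medians over regions called in all 8, entered limma 3.58.1 (R 4.3.3) as log2(bp + 200) for regions called in at least 2 libraries. One fit held all 4 groups, with a trended prior (4 residual and 1.52 prior degrees of freedom), two-sided, with Benjamini-Hochberg adjustment over 17679 regions. The fit was tried on simulated lengths with the same spread in every region. Real regions differ in spread, so that run checks the code and not the calls given here.

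Named regions are the 12 members of highest ratio, the 5 of longest mean embryonic bp, the 3 nearest to each side of the threshold, the 3 of smallest gap and, per contrast and direction, the 5 called members of largest log2 change. The members and lists were chosen with earlier results of these data known. Gene lists and sequence features were not analysed here, since no genome or annotation of mm9 was used.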

Additional observations from a re-analysis of the deposited data

How the results depend on the processing

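In AE minus ISC, the 1 member called longer became 0 with a pseudocount of 1000 bp, without scaling, with regions called in at least 1 library, with peaks of −log10 q of at least 10 and with the replicate number as a block, 3 with quantile normalization, and 0 to 1 without a library. At an unadjusted p under 0.05 limma gave 0 with the stricter peaks and 4 to 9 in the others. The 16 called shorter became 29 with quantile normalization, 2 with those stricter peaks and 4 to 66 without a library. In E14.5 minus E12.5, the 6 called longer became 136 without scaling, 3 with regions called in all 8 libraries, 17 with the stricter peaks and 0 to 9 without a library. The 18 called shorter became 0 without scaling, 2 with quantile normalization, 2 with regions called in all 8, 11 with regions called in at least 1, 0 with the stricter peaks and 0 to 34 without a library. With the replicate block these counts were 12 shorter in AE minus ISC, and 5 longer and 14 shorter in E14.5 minus E12.5. With the block, limma adjusted p was 0.0678 for the chromosome 11 region at 98219208 in AE minus ISC. In E14.5 minus E12.5 it was 0.0542 and 0.0588 for those at 30227914 and 101554172 on chromosome 13, and 0.0504 for that at 33621674 on chromosome 18. Replicate differences correlated between groups at 0.0532 to 0.237, not over 0.1 for every pair of groups, so the numbers were not taken as pairing the samples. The rule selected 102 regions without scaling (86 of the members), 30 with the stricter peaks (30), 181 at a ratio of 1.5, 37 at a ratio of 2, and 424 to 597 without a library (277 to 382 of the members). The members' median ratio was 1.42 to 1.53 without a library. The share of adult length inside the embryonic stretch was 89.6% to 95.5% without a library. Signs reversed with the stricter peaks in AE minus ISC for the regions at 35038226 on chromosome 8 (0.98) and 98219208 on chromosome 11 (-0.88). In E14.5 minus E12.5 they reversed with the stricter peaks for the Shh region (2.51) and those at 80840040 on chromosome 3 (1.53), 33621674 (1.38) and 34910024 (2.99) on chromosome 18, 108250373 on chromosome 4 (1.331) and 64224633 on chromosome 14 (1.35), and without scaling for the Shh region (0.36) and those at 34910024 (0.059) and 64224633 (0.094). The stricter peaks numbered 5338 and 10497 in AE, 6214 and 10205 in ISC, 11982 and 11955 in E14.5, and 1441 and 6514 in E12.5. Only 49 members have such a peak in all 8 libraries, so most of the stricter values rest on regions with no peak in some. Otherwise the cause was not tested. Over all settings, values of the named regions that had a call kept direction and call in 164 cases, lost the call in 83 and reversed in 9. The Shh region had no call to keep. The side on which embryonic length exceeds adult length has no median-over-libraries form, and that alternative was not run. Peak lists hold no reads, so depth limits every length by an amount that cannot be computed from them.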

Other observations

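The X chromosome lies outside the set, since the adult mice were male and the labels give no sex for the embryos. Of 251 X-linked regions with a peak in all 8 libraries, 19, or 7.57%, met the same criteria and 4 met them turned round. The median ratio over these regions was 1.06. The highest, on chromosome X from 92853375 to 92854549, had 284 and 265 bp in AE, 260 and 464 bp in ISC, 1144 and 1016 bp in E14.5, and 814 and 803 bp in E12.5, a ratio of 3.05. On autosomes, 475 constant regions met the criteria turned round and were longer in adults.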
